A study of Drosophila melanogaster with 20 samples.

Results

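Hsp68 and 5 relatives of the Hsp70 chaperone family (Hsc70-1, Hsc70-2, Hsc70-4, Hsc70-5 and Hsc70Cb) were followed in whole adult male Drosophila melanogaster with and without a heat shock. They are 6 of the 17807 genes of the deposited count table and were taken by name and FlyBase identifier. The flies came from 10 inbred lines of the Drosophila Genetic Reference Panel, a collection bred from wild-caught flies of a single population. Heat shock flies spent 30 minutes at 35 ± 1 °C and were frozen directly afterwards, and untreated flies of the same line were frozen at the same time. All flies were 2 days old, had been reared at 25 °C, and were pooled by 10 for each library, with 1 library per line and treatment. The lines carry the labels beneficial (RAL69, RAL93, RAL359 and RAL387, with RAL409 as a further line) or detrimental (RAL195, RAL304, RAL335, RAL737 and RAL819) for the outcome of preconditioning, an earlier mild stress. No transgene is part of the design, and each line is a single inbred genotype. RAL409 was left out of the tests, as in the study, so the tests rest on 4 beneficial and 5 detrimental lines (18 libraries).

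Hsp70 proteins hold unfolded stretches of other proteins and release them in a cycle of ATP binding and hydrolysis. J-proteins (Hsp40s) deliver clients and trigger hydrolysis, and nucleotide exchange factors reset the cycle. Flies keep cognate genes (Hsc70) that serve cells without stress, and inducible genes (the Hsp70 copies and Hsp68) that heat shock factor, Hsf, switches on when proteins unfold. Hsc70-4 is the main cytosolic cognate and also strips clathrin from vesicles. Hsc70-5, the fly mortalin, works in the mitochondrial matrix. Hsc70Cb is the Hsp110, a large relative that exchanges nucleotide on Hsp70 and takes part in dissolving aggregates. Hsc70-1 and Hsc70-2 are cytosolic cognates about which less is known.

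In the BDGP6 annotation, Hsp68 (FBgn0001230) lies at 3R 24055080 to 24057310 on the minus strand and is a single exon, a structure that needs no splicing. Hsc70-1 (FBgn0001216) lies at 3L 13974061 to 13977761 and has 2 to 4 exons depending on the transcript. Hsc70Cb (FBgn0026418, listed there as Hsp110) lies 59.3 kb further along the same strand, at 3L 14037019 to 14043686, with 5 to 7 exons. Hsc70-2 (FBgn0001217) lies at 3R 13044759 to 13047388 with 2 exons, and Hsc70-4 (FBgn0266599) at 3R 15242687 to 15246614 with 1 or 2 exons. Hsc70-5 (FBgn0001220) lies at 2R 14252598 to 14256192 on the minus strand with 6 exons. Hsp68 shares 13 bases with CG6000 and with lncRNA:CR44097 on the other strand, whose median counts per library were 83 and 0. No other member overlaps a gene.

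Libraries held 18.4 to 33.7 M counts. Values per library are counts divided by library size in M (CPM, where M stands for 1e+06) after scaling by trimmed mean of M values (TMM). Summed CPM of 10 testis markers ran from 2648 to 3632 in heat shock libraries and from 2758 to 3358 in untreated libraries, with medians of 3215 and 2902. Of these markers bol was called (log2 change 0.18 ± 0.06, adjusted p = 0.0318), a call lost with total-count scaling and in 6 of the 9 fits with 1 line left out, and 3 were called with line as a block. Summed CPM of 5 muscle markers ran from 13772 to 26556 with heat shock and from 12241 to 22120 without, and none was called. Summed CPM of 5 accessory gland markers ran from 1889 to 3846 with heat shock and from 2241 to 4580 without, and none was called except Acp36DE with total-count scaling. Summed CPM of 4 neuron markers ran from 499.8 to 761.7 with heat shock and from 491 to 769 without. Of these elav stood at 0.35 ± 0.13 (adjusted p = 0.0646) and was called with line as a block (adjusted p = 0.00119). It was also called in DESeq2 (adjusted p = 0.0418), in limma-voom (0.0463) and with RAL409 included (0.0399). With a single line left out, it was called without RAL93 (0.0437) or RAL819 (0.0136) only. Total-count scaling gave no call. Of 10 female germline and eggshell markers, 4 were abundant enough to test and 1 was called. That gene, the chorion gene Cp18, averaged 17.6 ± 2.54 CPM in heat shock libraries and 0.684 ± 0.243 CPM in untreated libraries (SD, n = 9 lines), and summed CPM of the 10 markers ran from 25.9 to 33.8 with heat shock and from 9.15 to 12.96 without. The vitelline membrane marker Vm26Aa stayed at or under 0.078 CPM in every one of these libraries. In whole flies, more transcript per cell and more cells of a kind cannot be told apart, and the part of these markers in the results was not tested.

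Heat shock was compared with no heat shock to find which of these genes the treatment moved within its 30 minutes. Hsp68, the inducible member, had the highest mean level with heat shock and the lowest without, per length, of the 6. In the 9 heat shock libraries it had 6604 CPM at the lowest, 8239 at the median and 10376 at the highest, against 50.7, 65.7 and 70.1 CPM in the untreated libraries. The lowest heat shock library thus lay far above the highest untreated library. Means were 8425 ± 1175 CPM and 63.7 ± 6.71 CPM (SD, n = 9 lines each), and the fold change within a line ran from 112 in RAL387 to 158 in RAL304. On the log2 scale Hsp68 rose by 7.03 ± 0.11 (SE, adjusted p = 1.23e-17 in edgeR). Only 7 of the 14270 genes tested had a larger log2 change, and those included the 6 inducible Hsp70 copies.

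Hsc70-4 was already the most abundant of the 6 without heat and rose about 3-fold. Heat shock libraries ran from 3746 CPM over a median of 3900 to 4386, and untreated libraries from 1155 over 1248 to 1338. The libraries did not overlap. Means were 3971 ± 222 CPM and 1238 ± 65.9 CPM (SD, n = 9 lines each), and the log2 change was 1.68 ± 0.05 (SE, adjusted p = 5.11e-14). In CPM, Hsc70-4 gained 2495 in RAL69 at the least and 3119 in RAL304 at the most.

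Hsc70Cb, the Hsp110 partner, had the second largest fold change of the 6. Its heat shock libraries had 458, 538 and 679 CPM (lowest, median and highest), and its untreated libraries had 114, 127 and 135 CPM. Again every heat shock library exceeded every untreated one. The log2 change was 2.12 ± 0.07 (SE, n = 9 lines, adjusted p = 1.94e-13). Line values of the log2 change ran from 1.83 in RAL335 to 2.35 in RAL304.

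Hsc70-5, the mitochondrial member, rose by less. It had 574, 614 and 689 CPM (lowest, median and highest) with heat shock and 316, 344 and 379 CPM without, again with no overlap. The log2 change was 0.84 ± 0.05 (SE, n = 9 lines, adjusted p = 1.19e-09), with line values from 0.67 in RAL335 to 1.04 in RAL304.

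Hsc70-2 and Hsc70-1 stood near their untreated levels. Hsc70-2 had 312, 356 and 411 CPM (lowest, median and highest) with heat shock and 275, 325 and 367 CPM without. These ranges overlapped, although on the TMM scale the heat shock library was the higher in 9 of 9 lines. Line values ran from a log2 change of 0.00 in RAL93 to 0.53 in RAL359. Hsc70-2 had a log2 change of 0.18 ± 0.07 (SE, adjusted p = 0.0671 in edgeR). With line as a block, a fit that sets each heat shock library against the untreated library of its own line, the change was 0.18 ± 0.05 and passed the threshold of 0.05 (adjusted p = 0.0186). DESeq2 without a block also called it (adjusted p = 0.0403).

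Hsc70-1 had 194, 311 and 357 CPM (lowest, median and highest) with heat shock and 165, 293 and 347 CPM without. The ranges overlapped over most of their length. On the TMM scale heat shock was the higher in 8 of 9 lines, RAL737 being the exception. The log2 change was 0.09 ± 0.12 (SE, 95% interval −0.16 to 0.34, adjusted p = 0.737). With line as a block it was 0.10 ± 0.04 (adjusted p = 0.0721). The direction depended on the scaling. As a percentage of total counts, RAL359 was the only tested line with more Hsc70-1 after heat shock (0.02763% against 0.02758%).

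**Figure D1:**
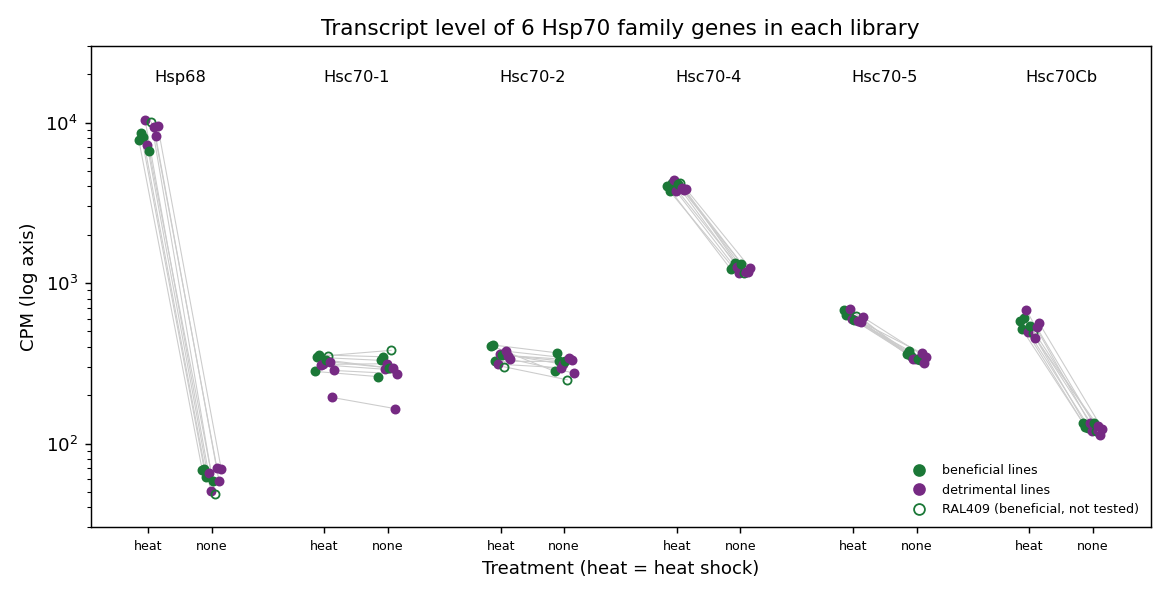
CPM (log axis) of the 6 genes in each library, heat shock left and none right for each gene, with a grey line joining both libraries of a line; filled points are the 4 beneficial (green) and 5 detrimental (purple) lines tested and open points are RAL409. Hsp68 spans 6604 to 10376 CPM with heat shock and 50.7 to 70.1 CPM without over the 9 tested lines, while Hsc70-1 and Hsc70-2 overlap between treatments.

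In all, 4 of the 6 genes rose and none fell. Over all 14270 genes tested, 17.9% were called in either direction and 8.29% were called as higher. The 4 that rose also had no overlap between their 9 heat shock and 9 untreated libraries, a pattern of higher values that 2.99% of tested genes showed. For a heat shock library above the untreated one in every line the share was 10.4% of genes, and 5 of the 6 genes, Hsc70-2 included, had it. In RAL93 Hsc70-2 had it only by 325.1 against 324.9 CPM, a gap under the counting error. As a percentage of total counts Hsc70-2 was lower with heat shock in RAL93, RAL195, RAL304, RAL335 and RAL387. With line as a block, 35.3% of genes were called, and 5 of the 6. When libraries were scaled by total counts only, the median gene moved to −0.19 on the log2 scale, and calls over all genes split into 696 higher and 4236 lower in place of 1183 and 1372. On that scale the 4 genes stayed called as higher (log2 0.65 for Hsc70-5 to 6.84 for Hsp68), Hsc70-2 stood at −0.01 and Hsc70-1 at −0.11.

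Levels of different genes were compared as CPM per kb of exon. With heat shock the order was Hsp68 (3776 ± 527 CPM per kb), Hsc70-4 (1462 ± 81.7), Hsc70-5 (213 ± 14.5), Hsc70-2 (166 ± 15.6), Hsc70Cb (147 ± 17.3) and Hsc70-1 (112 ± 17.7; SD, n = 9 lines each). The first 3 each stood above the next gene with no overlap between lines. Hsc70-2 and Hsc70Cb were not separated, since their ranges overlapped and Hsc70-2 was the higher in 7 of 9 lines. Hsc70Cb exceeded Hsc70-1 in 9 of 9 lines, with overlapping ranges. Without heat shock the order was Hsc70-4 (456 ± 24.3 CPM per kb), Hsc70-2 (146 ± 13.5), Hsc70-5 (119 ± 6.53), Hsc70-1 (105 ± 19.3), Hsc70Cb (33.7 ± 1.88) and Hsp68 (28.5 ± 3.01). Here Hsc70-4 stood clear of Hsc70-2, and Hsc70-1 clear of Hsc70Cb. The other neighbours had overlapping ranges, with Hsc70-5 above Hsc70-1 in 7 of 9 lines. Dividing by the longest transcript in place of all exons kept both orders.

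**Figure D2:**
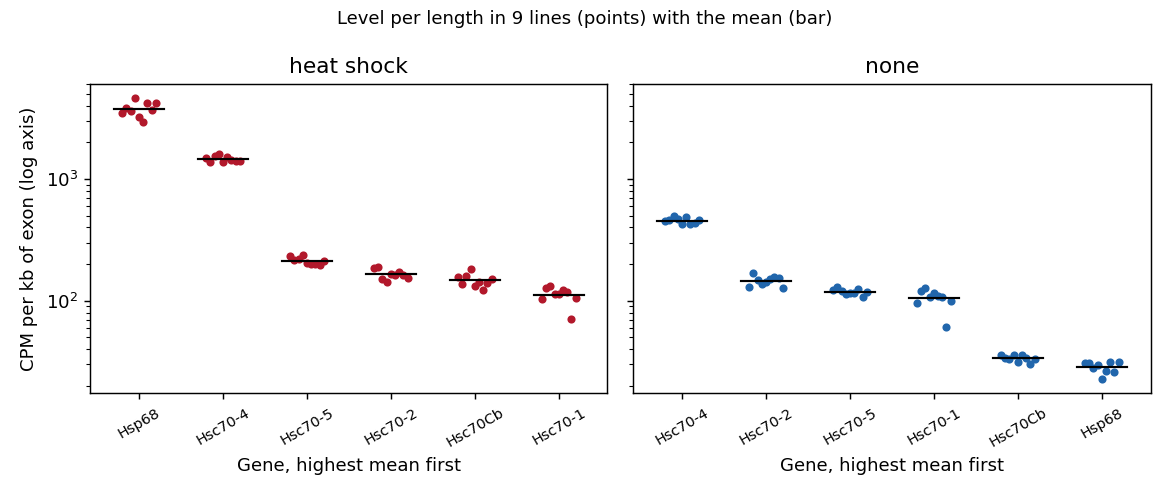
CPM per kb of exon (log axis) of the 6 genes in 9 lines, with heat shock on the left and none on the right; points are lines, bars are means, and genes run from the highest mean to the lowest. Hsp68 heads the heat shock panel (3776 CPM per kb) and ends the untreated panel (28.5 CPM per kb), while Hsc70-4 leads without heat shock (456 CPM per kb).

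The makeup of the group changed with these shifts. Hsp68 made up 59.0 ± 3.39% of the summed CPM of the 6 genes with heat shock and 2.68 ± 0.279% without, whereas Hsc70-4 made up 28.0 ± 2.41% and 52.1 ± 1.86% (SD, n = 9 lines). Per kb, Hsp68 stood at 2.59 ± 0.351 times Hsc70-4 with heat shock and at 0.0627 ± 0.00707 times it without. Together the 6 genes took 1.33 ± 0.0959% of all counts with heat shock and 0.256 ± 0.0131% without.

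Set beside the 6 inducible Hsp70 copies, whose reads cannot be safely split among near-identical genes and were therefore summed, Hsp68 was the smaller share with heat and the larger without. The sum reached 21321 ± 4821 CPM per kb with heat shock and 15.3 ± 5.17 CPM per kb without (SD, n = 9 lines). Hsp68 per kb was 0.181 ± 0.0272 times that sum with heat shock and 2.00 ± 0.496 times it without. How reads that match several copies were counted is not given in the sources used here, and reads dropped for matching several would lower the sum, so these ratios hold for the counted reads only.

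Genes that act with these chaperones were taken from lists chosen by function. Of 36 J-proteins, 7 rose and none fell, where 17.9% of all tested genes were called and 8.29% were called as higher. The list had a median log2 change of 0.02, and all tested genes had one of 0.00. The cytosolic Hsp40 DnaJ-1 averaged 2638 ± 169 CPM with heat shock and 126 ± 5.37 CPM without, a log2 change of 4.38 ± 0.06 (SE, n = 9 lines, adjusted p = 1.01e-18). CG7130 rose by 4.02 ± 0.18, CG7133 by 0.90 ± 0.08 and Droj2 by 0.88 ± 0.04. The 3 other calls, Tpr2, DnaJ-H and CG5001, were of 0.15 to 0.21. Scaled by total counts these 3 lay between −0.05 and 0.01 and were not called, while 11 other J-proteins were called as lower, where 4236 of all 14270 genes were. Without RAL359 or without RAL387, 4 J-proteins rose in place of 7. A block for line gave 7 higher and 5 lower, where 35.3% of all genes were called.

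Of the 3 nucleotide exchange factors, 2 rose, where 8.29% of all tested genes were called as higher. The BAG-domain protein Starvin (stv) averaged 2176 ± 138 CPM with heat shock and 112 ± 11.9 CPM without, a log2 change of 4.28 ± 0.08 (SE, n = 9 lines, adjusted p = 3.69e-17), and CG10973 rose by 1.68 ± 0.09. Roe1, the GrpE of mitochondria and the exchange factor for Hsc70-5, stood at 0.06 ± 0.07 (adjusted p = 0.633). The median of the list was 1.68.

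Among 12 other partners 6 rose and 1 fell, with a median log2 change of 0.32. Of all tested genes 17.9% were called and 8.29% were called as higher. Scaled by total counts 6 partners were called as higher and 5 as lower, with a median of 0.12. On that scale 4236 of all 14270 genes were called as lower. Hsp83, the fly Hsp90 that takes clients over from Hsp70, rose by 3.70 ± 0.08. Stip1 (Hop), the adaptor between both chaperones, rose by 2.64 ± 0.06, CG1416 (Ahsa1), an activator of Hsp90, by 2.02 ± 0.06 and the kinase co-chaperone Cdc37 by 1.14 ± 0.06. The ubiquitin ligase STUB1, known as CHIP, fell, with a log2 change of −0.17 ± 0.05 (adjusted p = 0.025). That call was lost without any of RAL304, RAL335, RAL387 and RAL737 (adjusted p = 0.0503 to 0.0608). A further listed partner, unc-45, had no counts under its identifier in the annotation used and is not among the 12.

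Of 15 genes of mitochondrial folding and import, 4 rose and none fell, with a median of 0.09. Of all tested genes 17.9% were called and 8.29% were called as higher. Hsp60A, the mitochondrial chaperonin, rose by 0.85 ± 0.05, close to Hsc70-5 at 0.84 ± 0.05, and its co-chaperonin CG11267 by 0.91 ± 0.10 (SE, n = 9 lines). ClpX, the unfoldase of a matrix protease, rose by 0.28 ± 0.05 and Hsp60B by 0.19 ± 0.06. With total-count scaling ClpX stood at 0.08 and Hsp60B at −0.01, neither called, and the Hsp60B call was lost in 7 of the 9 fits with 1 line left out. CG5504 (l(2)tid), the J-protein of the matrix, stood at 0.08 ± 0.06 (adjusted p = 0.4).

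Where 8.29% of all tested genes were called as higher, 2 of 3 further Hsp70 relatives rose. These were the endoplasmic reticulum chaperone Hsc70-3, known as BiP, by 1.62 ± 0.12 and its large partner Grp170 by 0.36 ± 0.07 (log2, SE, n = 9 lines). CG7182 stood at 0.08 ± 0.06 (adjusted p = 0.483). With total-count scaling Grp170 stood at 0.16 and was not called.

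**Figure D3:**
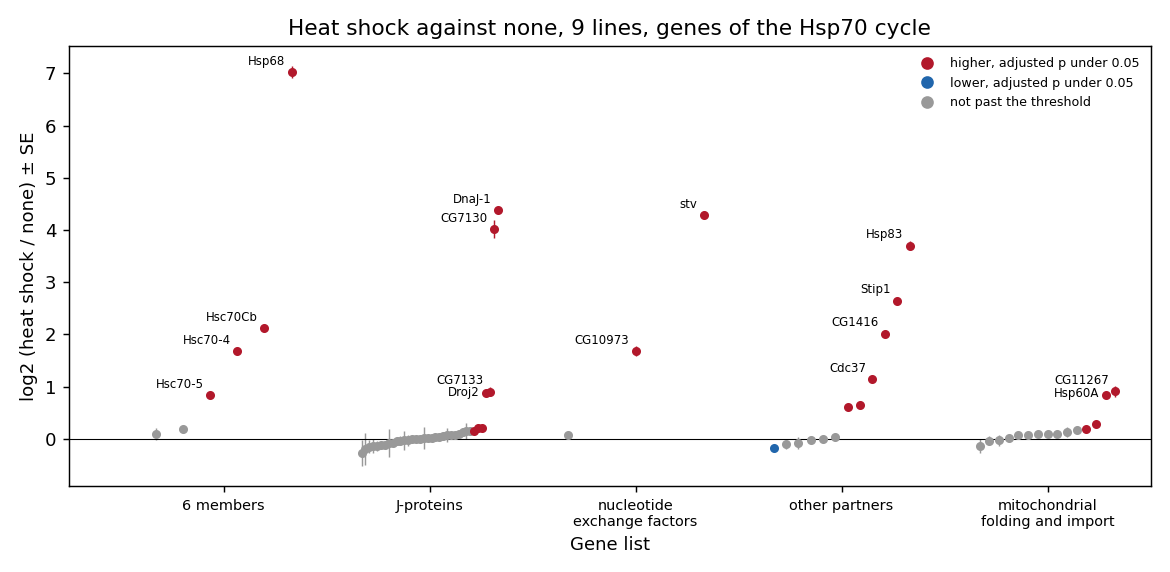
log2 change, heat shock over none, with its SE for the 6 genes and for 4 lists of genes that act with Hsp70, sorted within each list; red points are called as higher, blue as lower and grey points did not pass an adjusted p of 0.05. DnaJ-1 (4.38), stv (4.28), CG7130 (4.02) and Hsp83 (3.70) stand below Hsp68 (7.03) and above the other genes plotted.

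The genes whose change was most like that of each called member were found over 9 lines by the root mean square difference of their log2 changes, among 12705 genes with a mean of at least 1 CPM. For Hsp68 they were the small heat shock genes Hsp23 (difference 0.28, 4218 CPM with heat shock and 32.4 without) and Hsp26 (0.53), followed at a distance by CR43482 (1.21). For Hsc70-4 they were CCT8, a subunit of the cytosolic chaperonin (0.11), l(1)G0469 (0.15) and the autophagy receptor ref(2)P (0.16). For Hsc70-5 they were Droj2 (0.08), Mlf (0.08) and Hsp60A (0.09). For Hsc70Cb they were CG1416 (0.14), Taf7 (0.19) and FBgn0010812 (0.20), an identifier without a symbol in the annotation used.

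The study asked what sets beneficial and detrimental lines apart, and the responses of the 6 genes were compared between both classes. Within beneficial lines 4 of 6 rose, against 7.63% of all tested genes called in either direction and 4.27% called as higher. Within detrimental lines 4 of 6 rose too, against 9.96% and 5.34% of genes. They were Hsp68, Hsc70-4, Hsc70-5 and Hsc70Cb in both classes, and these 4 were also the calls with line as a block, against 19.4% of genes in beneficial and 22.9% in detrimental lines. Hsc70-4 rose by 1.65 ± 0.08 in beneficial and 1.71 ± 0.07 in detrimental lines, Hsc70-5 by 0.83 ± 0.08 and 0.85 ± 0.07, and Hsc70Cb by 2.10 ± 0.10 and 2.14 ± 0.09 (log2, SE, n = 4 and 5 lines).

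Hsp68 was the 1 member whose responses did not overlap between the tested lines of both classes. Its log2 change was 6.96 in RAL69, 7.03 in RAL93, 6.83 in RAL359 and 6.81 in RAL387 (beneficial), against 7.15 in RAL195, 7.30 in RAL304, 7.06 in RAL335, 7.15 in RAL737 and 7.09 in RAL819 (detrimental). Every tested beneficial line lay below every detrimental line. The nearest lines, RAL93 (130.4-fold) and RAL335 (133.5-fold), differed by less than the combined counting error of their untreated libraries (2.33% and 2.40%). The order of these lines is thus not settled by the counts. Such a separation was found in 0.329% of the 14270 genes tested. That share counts this direction only. For a single gene, random class labels would give this order with a probability of 0.00794, and the observed share was below that. The difference, beneficial minus detrimental, was −0.24 with a 95% interval of −0.60 to 0.12 in edgeR without a block (adjusted p = 1.00). With line as a block the interval was −0.49 to −0.00 (unadjusted p = 0.0493, adjusted p = 1.00). Permuting the class labels over all 126 splits of these lines (exact, two-sided) gave p = 0.00794, the smallest it can give, and p = 1.0 after adjustment over all genes. Full separation of the classes puts the unadjusted p at or near this floor. It therefore restates the pattern above and is no further support for it. RAL409, labelled beneficial, had the highest value of all 10 lines at 7.70 (10026 CPM with heat shock and 48.2 CPM without). With it included the difference of the class means was −0.09, with an exact permutation p of 0.683 over 252 splits.

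For the other 5 genes the class responses overlapped. The difference, beneficial minus detrimental, was −0.06 for Hsc70-4 (95% interval −0.27 to 0.14) and −0.04 for Hsc70Cb (−0.32 to 0.25). It was −0.01 for Hsc70-5 (−0.23 to 0.20), 0.04 for Hsc70-2 (−0.24 to 0.33) and −0.00 for Hsc70-1 (−0.51 to 0.50). With line as a block the intervals were −0.27 to 0.15 for Hsc70-4, −0.27 to 0.21 for Hsc70Cb, −0.21 to 0.19 for Hsc70-5, −0.19 to 0.28 for Hsc70-2 and −0.18 to 0.16 for Hsc70-1. No gene was called for this difference (0% of 14270), while 42 had an unadjusted p under 0.05 in edgeR, 47 in DESeq2 with 0 calls and 38 in limma-voom with 0 calls. With line as a block 338 genes had an unadjusted p under 0.05, with 0 calls.

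**Figure D4:**
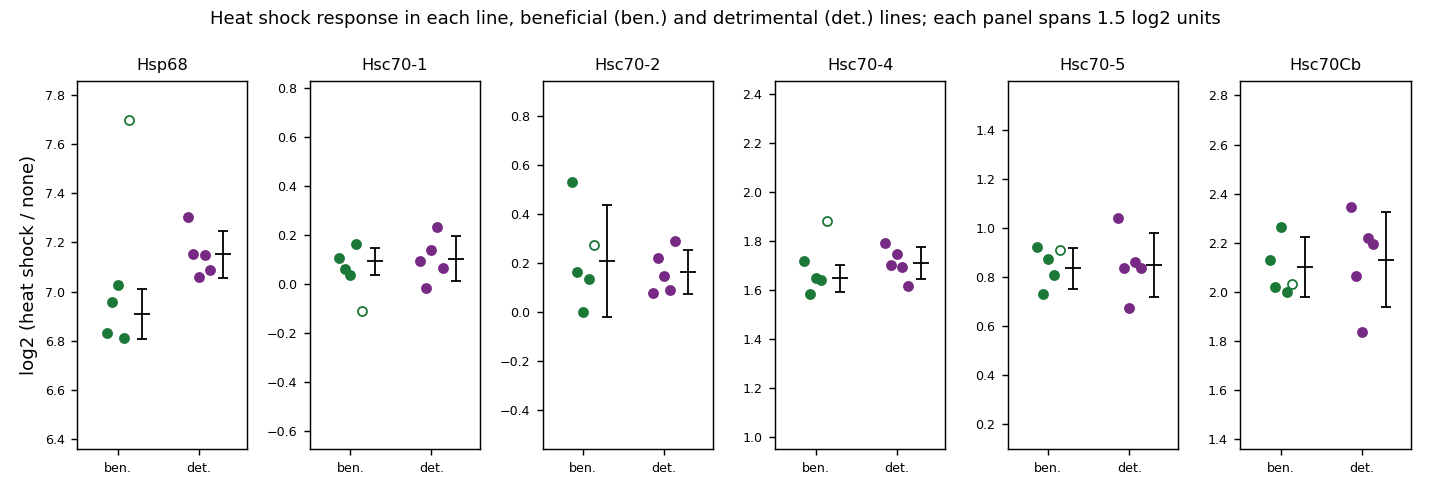
log2 change, heat shock over none, of the 6 genes in each line, beneficial lines left and detrimental lines right; points are lines, the bars give mean and SD of the 4 and 5 tested lines, the open point is RAL409, and every panel spans 1.5 log2 units around its own centre. For Hsp68 the 4 tested beneficial lines lie at 6.81 to 7.03 and the 5 detrimental lines at 7.06 to 7.30, with RAL409 at 7.70.

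Levels were also compared between the classes under each treatment, as the study did. With heat shock no gene was called (0% of 13877 tested; 611 had an unadjusted p under 0.05), although DESeq2 called 12. Without heat shock no gene was called either (0% of 13770; 576 with an unadjusted p under 0.05), and DESeq2 called 22. None of the 6 was among the DESeq2 calls. With heat shock Hsp68 had 8603, 8119, 7833 and 6604 CPM in beneficial RAL69, RAL93, RAL359 and RAL387, against 8239, 10376, 9352, 7220 and 9474 CPM in detrimental RAL195, RAL304, RAL335, RAL737 and RAL819. The classes overlapped. The log2 difference was −0.20 ± 0.13 (SE, 95% interval −0.49 to 0.09, adjusted p = 0.999 in edgeR), and the authors' deposited table gives −0.20 with an adjusted p of 0.999. Without heat shock the difference in Hsp68 was 0.05 ± 0.11 (95% interval −0.19 to 0.28).

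Hsc70-1 is described in full because 1 of its lines lay apart. With heat shock it had 344, 357, 281 and 332 CPM in the beneficial lines in the same order, against 194, 310, 323, 311 and 285 CPM in the detrimental lines. Without heat shock the beneficial lines had 330, 347, 261 and 296 CPM and the detrimental lines 165, 290, 293, 314 and 272 CPM. The classes overlapped under both treatments, and the detrimental RAL195 lay apart from the rest. The log2 difference was 0.20 ± 0.15 with heat shock and 0.21 ± 0.17 without (SE, adjusted p = 0.999 for both). Without RAL195 it was 0.10 with heat shock and 0.08 without. In the other 4 genes the log2 difference ran from 0.03 to 0.11 with heat shock and from 0.06 to 0.09 without. The authors' deposited tables give adjusted p-values of 0.999 and 1.0 for all 6 genes with and without heat shock.

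Differences among the 9 lines themselves were tested with treatment taken into account. Of all tested genes 63.6% differed between lines, and of the 6 only Hsc70-1 and Hsp68 did. The line coefficients of Hsc70-1 spanned 0.98 log2 units (adjusted p = 2.05e-05). RAL195 was its lowest line under both treatments, with 194 CPM with heat shock and 165 CPM without, and the next lowest line, RAL359, had 281 and 261 CPM. Without RAL195 the span was 0.38 and still called (adjusted p = 0.0143). RAL195 also had the lowest untreated level of Hsc70-5 and Hsc70Cb.

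The Hsp68 call was close to the threshold, with a span of 0.45 and an adjusted p of 0.0489. It was lost with total-count scaling (adjusted p = 0.0535), with RAL409 included (0.232), and without any of RAL69, RAL195, RAL335, RAL387, RAL737 and RAL819 (0.0589 to 0.142). Hsc70-2 spanned 0.35 (adjusted p = 0.147) and was called without RAL359 (adjusted p = 0.0161) and with RAL409 included (0.0442). Hsc70Cb spanned 0.32 (adjusted p = 0.177), Hsc70-5 0.22 (0.385) and Hsc70-4 0.19 (0.443).

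Spread within groups was smallest for Hsc70-4 and Hsc70-5. The biological coefficient of variation, which edgeR estimates over all groups together, was 9.04% for Hsc70-4 and 9.43% for Hsc70-5. Of all tested genes, not matched for level of expression, 0.603% and 1.58% had a lower one. It was 11.5% for Hsc70-2, 11.6% for Hsc70Cb, 13.5% for Hsp68 and 18.6% for Hsc70-1, with a median of 18.03% over all tested genes. The SD between lines as a percentage of the mean CPM was 5.59% with heat shock and 5.32% without for Hsc70-4. It was 6.80% and 5.50% for Hsc70-5, and 11.8% and 5.58% for Hsc70Cb. Counting error added little, at most 2.72% in any library of the 9 tested lines, for untreated Hsp68. Among the heat shock libraries of the 9 tested lines RAL304 had the highest CPM for Hsp68, Hsc70-4, Hsc70-5 and Hsc70Cb and the lowest for Hsc70-2. Its TMM factor of 0.867 was the lowest of all libraries, and as a percentage of total counts RAL304 was highest for Hsp68 and Hsc70Cb, while RAL359 was highest for Hsc70-4 and Hsc70-5.

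**Figure D5:**
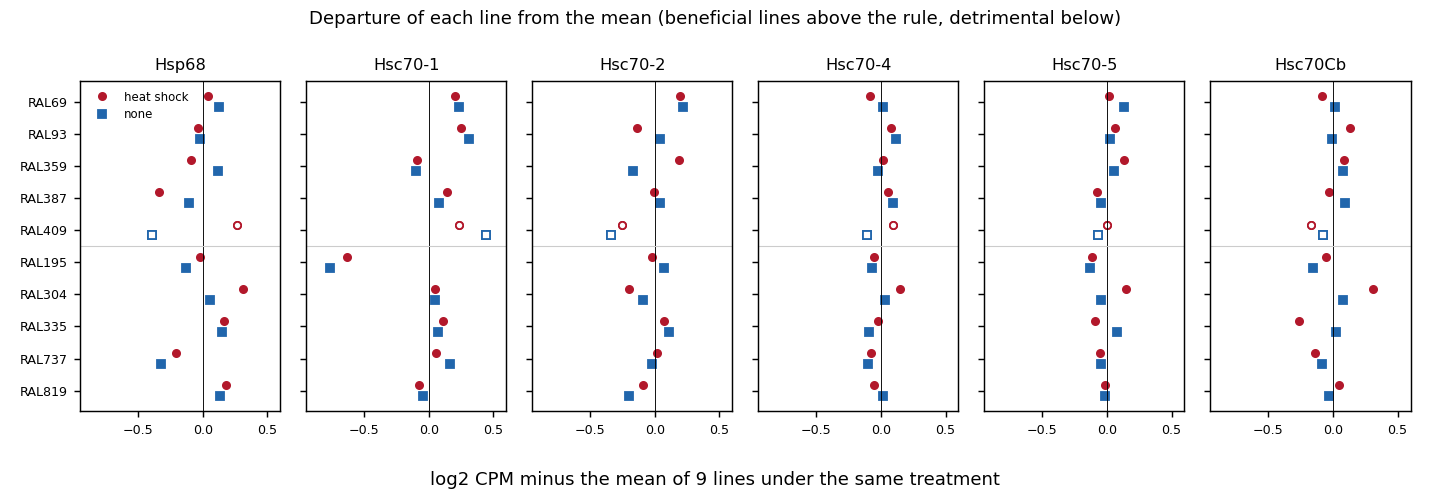
log2 CPM of each line minus the mean of the 9 tested lines under the same treatment, for the 6 genes; red circles are heat shock, blue squares none, open symbols RAL409, with beneficial lines above the grey rule and detrimental lines below it. RAL195 lies lowest for Hsc70-1 under both treatments, and RAL304 lies highest among the 9 tested lines for Hsp68, Hsc70-4, Hsc70-5 and Hsc70Cb with heat shock.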

How the data were processed

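The authors deposited whole-number counts per FlyBase gene for 20 libraries, and tables comparing the classes with log2 ratios, p-values and adjusted p-values. Per the file headers, these tables also hold a mean signal (counts over size factors) and a score (Wald statistic), not used here. Per the labels' protocols, the kit was stranded. Per the submitters' processing notes, BDGP6, Bowtie2 2.2.9, SAMtools 1.12 and DESeq2 1.28.1 were used; the counting tool, its strand setting and its treatment of reads with several matches are not given in the sources used here. Of the 17807 identifiers, 97 had no match in Ensembl release 115.

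Counts were tested in R 4.3.3 with edgeR 4.0.16 (filterByExpr, TMM scaling, quasi-likelihood F tests, 1 coefficient per class and treatment), with Benjamini-Hochberg adjustment over all tested genes and a threshold of 0.05. Both libraries of a line share its genotype. Their deviations from group means correlated at 0.548 to 0.843 over 12696 genes, against at most 0.123 between lines, so line as a block was an alternative, beside DESeq2 1.42.0, limma-voom 3.58.1, other scalings and filters, a threshold of 0.1, RAL409 included and each line left out. The edgeR fits were tried on counts simulated independently for each library. That trial lacked the correlation within lines given above, and no result here rests on it. Likeness and CPM used TMM over 20 libraries, and lengths came from the annotation. Line was the replicate, and pools of a line were not replicated. All members are named; from each list up to 4 of the smallest p among calls, and others were chosen after their values were seen. Members and lists were chosen with earlier results of these data known.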

Additional observations from a re-analysis of the deposited data

Results flagged for a closer look

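Among 36 groups of 5 lines checked for a line far from the others, 4 held such a line, where chance gives about 1 in 20 for a single group. The groups share lines and libraries and are not independent, so their count cannot be set against that rate. In beneficial lines, RAL409 had a log2 change of Hsp68 with heat shock of 7.70, and the next highest line had 7.03. In detrimental lines, RAL195 had a log2 CPM of Hsc70-1 of 7.60 with heat shock, below the next lowest line at 8.16, and of 7.37 without heat shock, below the next lowest at 8.09. In detrimental lines with heat shock, RAL304 had a log2 CPM of Hsc70-4 of 12.1, above the next highest at 11.9.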

How the results depend on the processing

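Outside the test between lines, and apart from a looser threshold, the 6 genes gave 588 values under alternatives. Of these, 584 stayed called or stayed uncalled, 4 became calls and no called value changed sign. None of the 6 was called between the classes, so values there only stayed uncalled. All 4 new calls were Hsc70-2. Over all lines it stood at 0.19 in DESeq2, 0.18 with line as a block and 0.19 with that block and RAL409. In beneficial lines it stood at 0.22 with the block and RAL409. Values that were not called could change sign. Over all lines Hsc70-1 ran from −0.11 to 0.11 and Hsc70-2 from −0.01 to 0.22 under the alternatives. At a threshold of 0.1, 5 of the 6 genes were called over all lines, Hsc70-2 (adjusted p = 0.0671) being the addition. Genes called over all lines numbered 2555, against 4932 with total-count scaling, 5032 with the block and 5101 with the block and RAL409. Without each line in turn they ran from 2077 to 2338. In beneficial lines they numbered 1089, against 2178, 2767 and 3482 in the same order. Without each line they ran from 628 (RAL387) to 1117, with 682 without RAL359. In detrimental lines they numbered 1422, against 3443, 3265 and 2849, and from 936 (RAL335) to 1419 without each line. Between classes DESeq2 called 12 genes with and 22 without heat shock, and the other alternatives called 0. Between lines, 2 of the 6 genes were called, against 1 with total-count scaling and 1 to 3 without each line. The causes were not tested. Counting error was at most 2.72% of a member's value in the tested libraries.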
